A study of Drosophila melanogaster with 39 samples.

Results

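Cytoplasmic ribosomal protein genes encode the proteins of the large (RpL) and small (RpS) ribosomal subunits that make up the cytosolic ribosome. They were taken as every gene of the *Drosophila melanogaster* release 6 (dm6) annotation whose symbol starts with RpL or RpS, which leaves out the mitochondrial mRpL and mRpS genes. This gave 92 of 18358 genes, 54 with an RpL and 38 with an RpS symbol. Their binding was read from lists of ChIP-seq peaks in Kc167 cells, a line of hemocyte type derived from embryos, not otherwise modified and treated for 4 days with double-stranded RNA. Control cells received mcherry dsRNA, and knockdown cells received *eff* or *cul4* dsRNA. CP190, Su(Hw) and Cul4 (rabbit antibody raised to human Cul4) were each profiled in all 3 treatments, and the lists of a mouse antibody to human Cul4 used here are from control cells. That makes 30 lists in 10 groups of 3 libraries. A further 9 input libraries have no list of their own. The libraries of a group are biological replicates per the labels, and whether they came from separate cultures is not stated, so a p-value measures the spread between these libraries. The lists measure chromatin binding and hold no expression values, so neither the hemocyte identity of the cells nor the depletion of *eff* and *cul4* was checked with them.

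Ribosomal protein genes are among the most highly transcribed genes of a growing cell, and their promoters are regulated together so that the subunits are made in matching amounts. Many of them in *Drosophila* start transcription within a pyrimidine-rich TCT initiator in place of the common initiator, and are transcribed with the TBP-related factor Trf2. The factors M1BP and Dref bind near many of their start sites. CP190 is a cofactor of insulator proteins, which separate regulatory domains of the genome, and it is found at many active promoters. Su(Hw), which has zinc fingers, binds the DNA of the *gypsy* insulator. Cul4 holds together a group of ubiquitin ligases, and Eff is a ubiquitin-conjugating (E2) enzyme.

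The promoters below are shown because the results turn on their genes: Cul4 peaks among the strongest (*RpS9*, *RpL3*), *RpS9* also with the strongest CP190 peak, CP190 ranks that differed between treatments (*RpL22*, *RpS25*, *RpL6*, *RpL27*), genes bound by Cul4 with weak or no CP190 (*RpL10*, *RpL15*, *RpL5*, *RpS27A*), a stalk gene (*RpLP1*), and genes with few or no calls (*RpL40*, *RpL10Aa*). Each runs 5′ to 3′ on the strand of the gene, from 100 bases before the 5′-most annotated transcription start site (TSS) to 20 bases from it on, in the RefSeq release 6 genome. Capitals mark the M1BP motif (GGTCACAC, or its complement GTGTGACC), the DRE bound by Dref (TATCGATA) and a TCT initiator (CTTTT or CTTTC on the gene strand with its first base within 5 bases of the TSS).
RpS9, chr3L:9511512-9511631, minus strand: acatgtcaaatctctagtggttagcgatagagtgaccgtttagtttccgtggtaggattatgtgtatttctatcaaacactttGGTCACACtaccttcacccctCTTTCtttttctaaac
RpL3, chr3R:11221794-11221913, plus strand: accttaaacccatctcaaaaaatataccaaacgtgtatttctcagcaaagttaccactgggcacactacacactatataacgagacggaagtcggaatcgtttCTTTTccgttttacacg
RpL22, chrX:765111-765230, minus strand: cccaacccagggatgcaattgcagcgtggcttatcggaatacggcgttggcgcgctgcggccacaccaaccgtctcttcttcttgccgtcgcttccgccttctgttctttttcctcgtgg
RpS25, chr3R:11216268-11216387, minus strand: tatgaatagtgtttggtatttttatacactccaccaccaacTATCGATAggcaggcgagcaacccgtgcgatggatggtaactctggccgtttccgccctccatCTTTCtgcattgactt
RpL6, chr3R:31596185-31596304, minus strand: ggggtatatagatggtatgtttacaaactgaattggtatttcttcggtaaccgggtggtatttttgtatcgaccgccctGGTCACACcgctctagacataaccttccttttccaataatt
RpL27, chr3R:25685032-25685151, minus strand: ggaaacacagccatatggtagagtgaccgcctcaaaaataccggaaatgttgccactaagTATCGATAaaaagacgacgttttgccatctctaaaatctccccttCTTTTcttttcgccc
RpL10, chr3L:23095452-23095571, minus strand: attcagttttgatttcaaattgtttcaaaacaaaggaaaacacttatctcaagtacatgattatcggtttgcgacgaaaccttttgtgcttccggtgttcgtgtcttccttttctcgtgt
RpL15, chr3L:27267155-27267274, plus strand: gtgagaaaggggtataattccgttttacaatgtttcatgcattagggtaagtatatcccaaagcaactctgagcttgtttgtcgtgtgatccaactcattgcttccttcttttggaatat
RpL5, chr2L:22536865-22536984, minus strand: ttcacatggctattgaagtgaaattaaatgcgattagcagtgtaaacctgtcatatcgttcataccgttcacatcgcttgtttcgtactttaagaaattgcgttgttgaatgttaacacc
RpS27A, chr2L:10408252-10408371, plus strand: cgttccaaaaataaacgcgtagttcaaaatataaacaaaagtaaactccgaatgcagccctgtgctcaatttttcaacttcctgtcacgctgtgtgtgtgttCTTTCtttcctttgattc
RpLP1, chr2L:419852-419971, plus strand: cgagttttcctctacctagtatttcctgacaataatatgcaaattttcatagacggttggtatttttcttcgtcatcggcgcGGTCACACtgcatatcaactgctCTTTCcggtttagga
RpL40, chr2L:4227599-4227718, plus strand: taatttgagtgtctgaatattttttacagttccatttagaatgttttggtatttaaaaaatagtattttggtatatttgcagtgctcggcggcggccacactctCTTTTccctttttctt
RpL10Aa, chr3R:15037266-15037385, plus strand: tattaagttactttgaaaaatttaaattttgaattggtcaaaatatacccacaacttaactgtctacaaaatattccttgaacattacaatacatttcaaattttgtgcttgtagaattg

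At the 5′-most TSS, with the first base within 5 bases of it, 31 of the 92 genes (33.7%) held a TCT initiator, against 3.47% of 13968 protein-coding genes. With every annotated TSS allowed, a setting added after the data were seen, these shares were 57 genes (62%) and 5.13%. The other letters were searched on both strands, over the window from 250 bases before to 50 after the 5′-most TSS. The DRE was in 28 genes (30.4%, against 9.36% of protein-coding genes), the M1BP motif in 14 (15.2% against 7.69%) and the E-box CACGTG, the letters bound by Myc and Max, in 8 (8.7% against 4.2%). The TATA box letters TATAAA were in 44 (47.8% against 45.8%), and GAGAG, the letters of GAGA factor, in 16 (17.4% against 29.7%). Matches of different motifs were counted separately and may overlap where letters are shared, and a match describes letters only. Of the 28 genes with a DRE, 26 had a CP190 site and 24 a Cul4 site in control cells as defined in the next paragraph, where 83.7% of all ribosomal protein genes had a CP190 site and 85.9% a Cul4 site. Of the 14 with the M1BP motif, 13 had each. Of the 31 with a TCT initiator, 28 had a Cul4 site and 24 a CP190 site. These counts lie near the shares of the whole family and are no result about the motifs. Among all genes with a Cul4 site and all with a CP190 site, the M1BP motif was in 15.8 and 14.4%, near the 15.2% of the family. The DRE was in 14.5 and 15.1% of these genes, the E-box in 4.43 and 4.53% and a TCT initiator in 4.2 and 3.79%. The 7 genes with a TCT initiator and no CP190 site include *RpL40*, *RpS27A* and *RpS3A*. Among the printed promoters, *RpS9* and *RpLP1* hold both the M1BP motif and a TCT initiator, *RpS25* and *RpL27* both a DRE and a TCT initiator, and *RpL22*, *RpL10*, *RpL15*, *RpL5* and *RpL10Aa* none of the 3 in the printed stretch. The letters GCCACAC, noticed while reading these promoters and searched afterwards, were in 17 of the 92 genes (18.5%) and in 4.85% of protein-coding genes, within the same window and on both strands.

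In control cells most ribosomal protein genes were called for both Cul4 and CP190. A gene was counted as called in a library when a peak of its list overlapped the interval within 1 kb of any TSS, and as having a site in a group when all 3 libraries called it. Rabbit Cul4 had a site at 79 of the 92 genes (85.9%), against 25.3% of all genes, with 83, 84 and 83 genes called in the 3 libraries. CP190 had a site at 77 (83.7%), against 39.2% of all genes, with 86, 77 and 81 called. Both proteins had a site at 71. Of the 79 genes with a Cul4 site 89.9% also had a CP190 site, and of all genes with a Cul4 site 83.9% did. The 73 mitochondrial ribosomal protein genes gave a different picture: 24 (32.9%) had a Cul4 site and 54 (74%) a CP190 site. Mouse Cul4, whose lists hold 809 to 933 peaks, had a site at 8 ribosomal protein genes (8.7%), against 3.55% of all genes. Su(Hw) had a site at 5 (5.43%), against 6.7% of all genes.

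**Figure D1:**
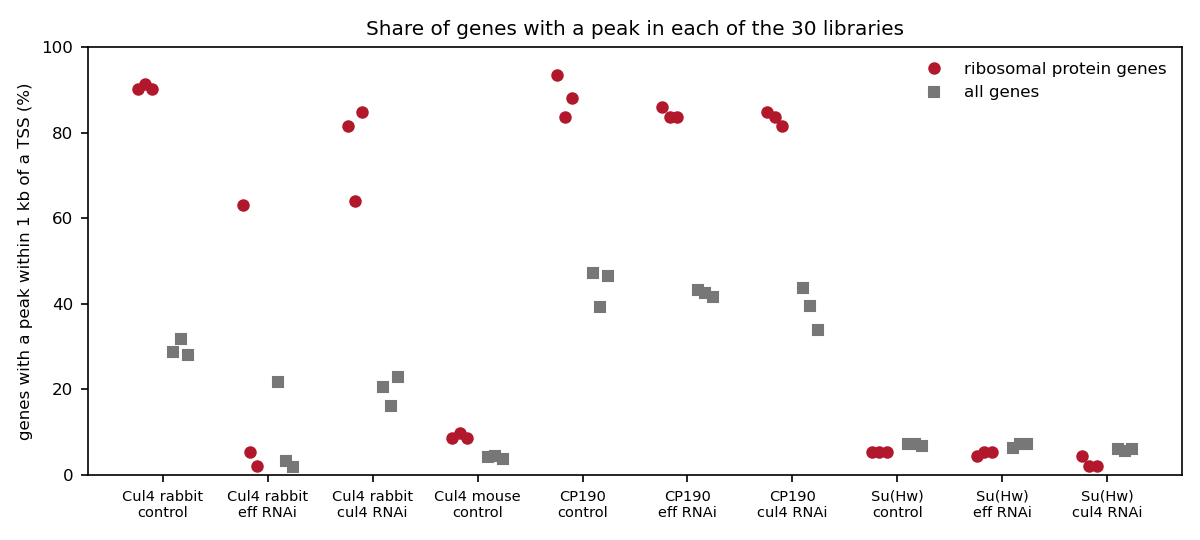
Percent of the 92 ribosomal protein genes (red circles) and of all 18358 genes (grey squares) with a peak within 1 kb of a TSS in each of the 30 libraries, replicates 1 to 3 from left to right in each group. Cul4 and CP190 control libraries call 83.7 to 93.5% of the ribosomal protein genes, and the 3 rabbit Cul4 libraries of *eff* RNAi call 63, 5.43 and 2.17%.

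The lists differ in depth, which sets the weakest site that they can call. They hold 424 to 9149 peaks, with a fold enrichment of 1.40 to 50.8 over the local background and a −log10 q of at least 9.04. The lists give no read totals, so depth was judged from the lowest local background that a list implies through its fold and p values. This was between 4.49 reads at a summit in replicate 3 of Cul4 after *eff* RNAi and 33.2 in replicate 1 of the same group. Strength is therefore given as a percentile, the rank of a gene's strongest peak by fold enrichment within its own list, where 100 is the strongest peak of the list. In control cells, the median percentile of the ribosomal protein genes called was 61.5 ± 3.15 for Cul4 (SD, n = 3 libraries), against 54.2 ± 0.781 for all genes called. For CP190 it was 60.5 ± 0.854 against 49.2 ± 1.8. It lay below the median of all genes for Su(Hw), at 33.5 ± 5.33 against 63.5 ± 1.56, and for mouse Cul4, at 33.5 ± 3.52 against 47 ± 1.27.

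**Figure D2:**
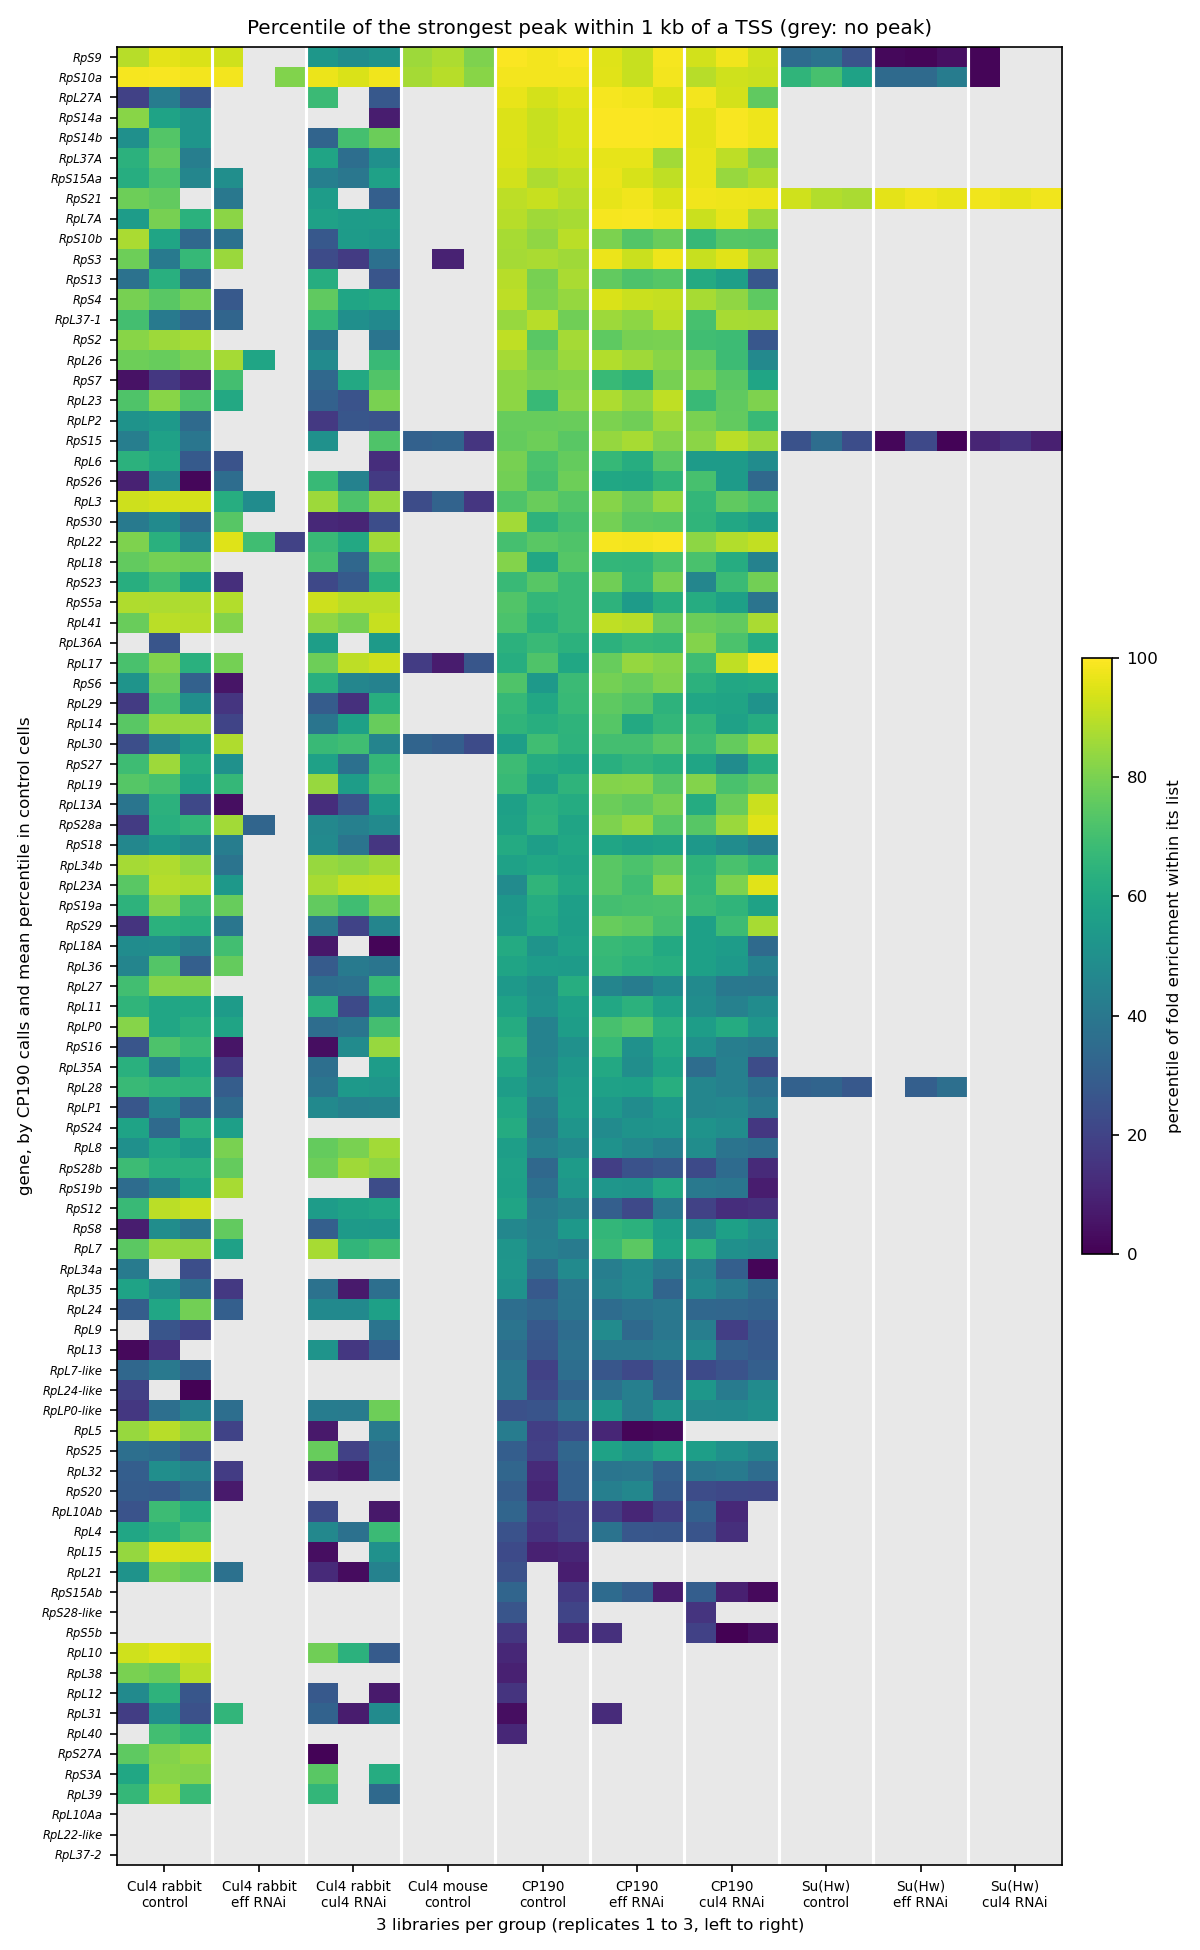
Percentile of the strongest peak within 1 kb of a TSS (colour, 0 to 100) for 90 of the 92 genes (rows, ordered by CP190 calls and mean percentile in control cells) in each of the 30 libraries (columns, 10 groups of 3), with grey for no peak. *RpS9* and *RpS10a* head the CP190 order, *RpS21* stands out for Su(Hw), and *RpL10Aa*, *RpL22-like* and *RpL37-2* have no peak in any library.

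The strongest Cul4 peaks in control cells were at *RpS10a*, *RpL10*, *RpS9*, *RpL3* and *RpL15*, all but *RpS10a* single-copy core genes. *RpS10a*, which encodes a second version of the small subunit protein S10, stood at percentiles of 98.7, 99 and 98.4 in the 3 libraries. *RpL10* stood at 92.6, 95 and 93.5, *RpS9* at 89.4, 96 and 94.4, and *RpL3* at 92.4, 93.5 and 93.7. *RpL15* stood at 84, 94.6 and 93.8. The lowest by mean percentile were *RpS7* (4.96, 16.4 and 9.05), *RpS26* (9.52, 46.7 and 1.94), *RpL27A* (19.5, 41.8 and 26.5), *RpS20* (29.1, 28.5 and 35) and *RpL31* (18.1, 49.8 and 24.9). The order among these last genes is not resolved, since their libraries overlap.

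The order by CP190 was a different one. *RpS9* led with 99.4, 98.3 and 99.4, a fold enrichment of 19.0, 19.8 and 18.4, followed by *RpS10a* with 98.3, 98.2 and 98.1 and by *RpL27A* with 96.8, 93.4 and 95.6. *RpL27A* was thus near the top for CP190 and near the bottom for Cul4, and *RpS7* likewise, at 83.2, 80.8 and 81.1 for CP190. *RpS14a* and *RpS14b*, tandem copies of the same small subunit protein, shared 1 CP190 peak at 94.9, 91.7 and 93.9, so they are not independent. The lowest CP190 sites were at *RpL15* (22.3, 9.02 and 10.7), *RpL4* (25, 14.5 and 19.8), *RpL10Ab* (32.8, 16.7 and 19.5), *RpS20* (29.3, 10.5 and 30.8) and *RpL32* (33.1, 11.9 and 30.6). *RpL15* thus had one of the strongest Cul4 peaks and the weakest CP190 site. Across the 71 genes with both sites, the mean percentiles of Cul4 and CP190 were weakly related, with a Pearson r of 0.14 and a Spearman rho of 0.15, against 0.39 and 0.38 across all 3892 genes with both sites. These values describe genes, which share libraries and input and are not replicates.

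Cul4 and CP190 did not peak at the same position. The summit of the strongest Cul4 peak lay at a median of 30.5 ± 28 bp from the nearest TSS (SD of 3 library medians, which were 0, 36.5 and 55 bp). Positive values are on the transcribed side. That of CP190 lay at −123 ± 9.64 bp, upstream. For the 71 genes with both sites the Cul4 medians were −10, 15 and 48 bp, so the side differed between libraries, and CP190 lay at −126 ± 12.2 bp. Over all 3892 genes with both sites the values were −37.5 ± 4.09 bp for Cul4 and −114 ± 1.32 bp for CP190. At the 71 genes with both sites, the CP190 summit was upstream of the Cul4 summit at 62 (87.3%), against 61.2% of all 3892 genes with both. The distance between the summits had a median of 199 bp (147 bp over all such genes), and 16 of the 71 (22.5%) had them within 100 bp, against 40.5% of all such genes. A neighbouring promoter can hold the strongest peak, since 58 of the 92 genes have the TSS of another protein-coding gene within 1 kb. At the 25 genes with both sites and no such neighbour, CP190 was upstream at all 25, with a median distance of 185 bp. At the other 46 it was upstream at 37. This split by neighbour was not made over all genes, so it cannot be called particular to ribosomal protein genes. Gene by gene, the summits of *RpL27A* were 643 bp apart with CP190 upstream and those of *RpS7* 634 bp. At *RpL23A* and *RpS10a* they were 1.33 and 0.667 bp apart. At *RpS5a* and *RpL26* the order was turned, with CP190 740 and 675 bp downstream of a Cul4 summit at −897 and −665 bp from the TSS.

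**Figure D3:**
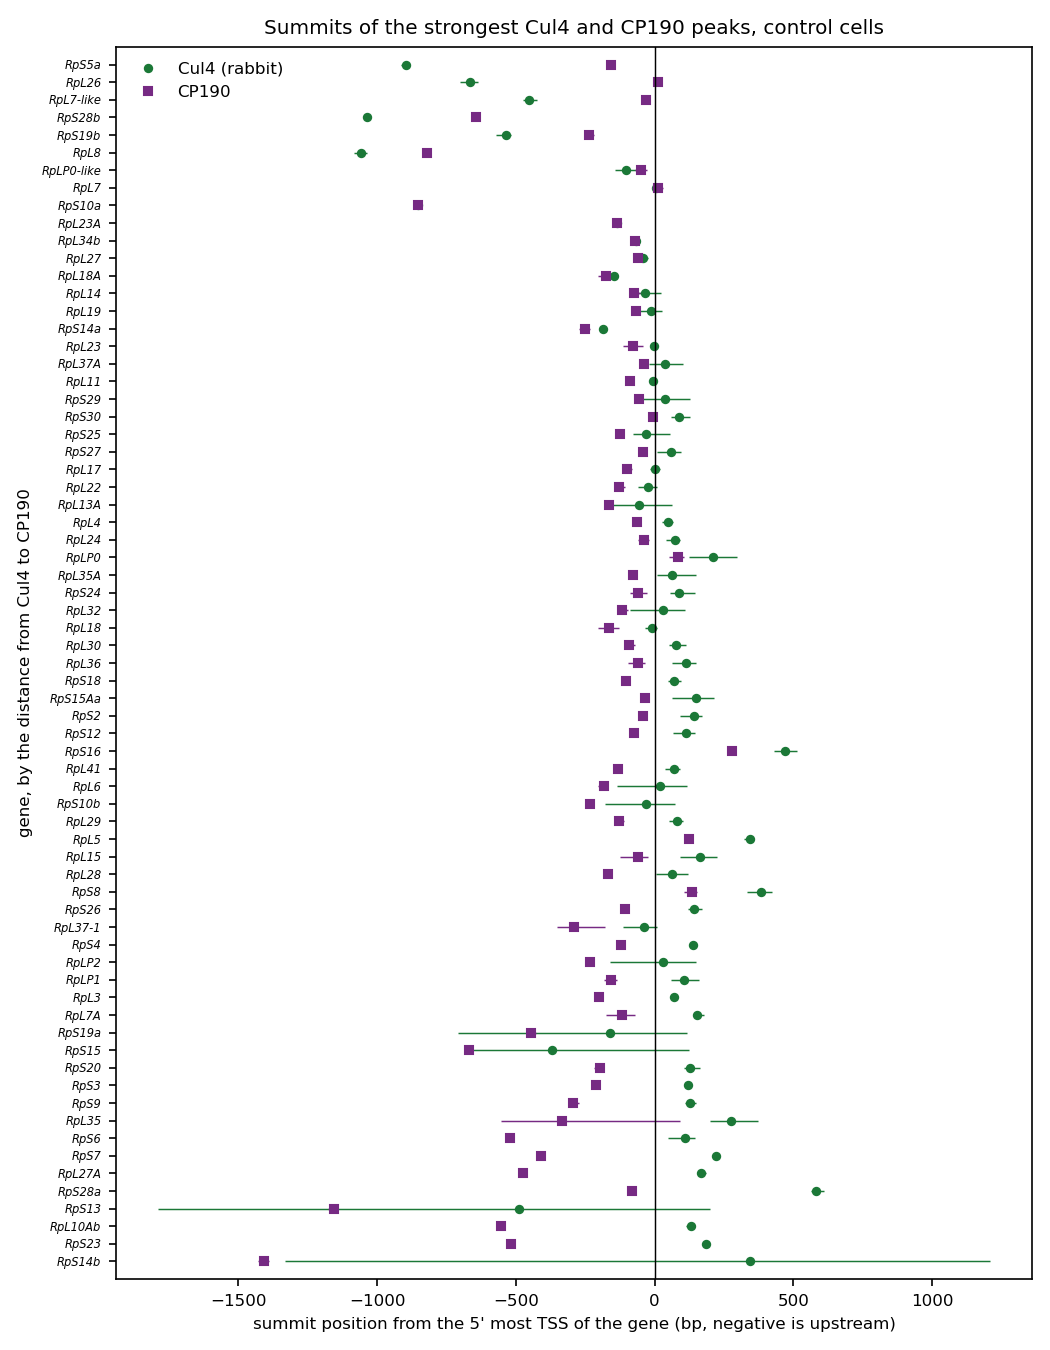
Mean summit position of the strongest Cul4 (green circles) and CP190 (purple squares) peak in control cells, in bp from the 5′-most TSS, for 69 of the 71 genes with both sites, with lines from the lowest to the highest of 3 libraries. CP190 lies upstream (left) of Cul4 at 61 of the genes drawn, and the genes at the top, such as *RpS5a* and *RpL26*, show the turned order.

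At 8 genes Cul4 had a site and CP190 had none: *RpL10*, *RpL12*, *RpL21*, *RpL31*, *RpL38*, *RpL39*, *RpS27A* and *RpS3A*. Of these, *RpS3A*, *RpL39* and *RpS27A* held no CP190 peak in any of the 9 CP190 libraries, with Cul4 percentiles of 59.7, 82.2 and 81.3 at *RpS3A*, of 66.6, 85.7 and 67.5 at *RpL39* and of 75.3, 81.3 and 84.3 at *RpS27A*. *RpS27A* shares its TSS with *Ip259*, so its peak cannot be given to 1 of the 2 genes. The reverse, a CP190 site without a Cul4 site, was seen at 6 genes: *RpL13*, *RpL24-like*, *RpL34a*, *RpL36A*, *RpL9* and *RpS21*. All 6 were called for Cul4 in 1 or 2 of the control libraries. Neither protein had a site at 7 genes, *RpL10Aa*, *RpL22-like*, *RpL37-2*, *RpL40*, *RpS15Ab*, *RpS28-like* and *RpS5b*, and of these only *RpL40* held a rabbit Cul4 peak in any library, at 69.8 and 65.4 in 2 control libraries.

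Of the 8 genes with Cul4 alone, 4 lie next to a centromere or on chromosome 4, a grouping made after the values were seen. The ribosomal protein genes in these regions are *RpS3A* on chromosome 4, *RpL10* and *RpL15* at the inner end of chromosome arm 3L, *RpL21* and *RpL5* at that of 2L, and *RpL38* on the right arm of the second chromosome. All 6 had a Cul4 site, and only *RpL15* and *RpL5* had a CP190 site. Of the other 86 ribosomal protein genes 73 (84.9%) had a Cul4 site and 75 (87.2%) a CP190 site. Over all 365 genes in these regions the shares were 20.5% for Cul4 and 16.4% for CP190, and over all other genes 25.4% and 39.6%. Of all genes with a Cul4 site, 52% of those in these regions also had a CP190 site, against 84.4% elsewhere. Fewer CP190 sites beside Cul4 are thus not particular to the ribosomal protein genes there. The only ribosomal protein genes with a CP190 site in control cells and no CP190 call in any library of a knockdown were *RpL15* and *RpL5*.

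Other genes of the translation machinery were called as well. Of 38 other genes of ribosome function, 25 had a Cul4 site and 30 a CP190 site in control cells, to be read against 25.3 and 39.2% of all genes, as are the smaller classes that follow. Both *sta* and *Rack1* had sites of Cul4 and CP190, as did 5 of the 7 elongation factor genes, among them *eEF1alpha1* and *eEF2*. Of 15 ribosome biogenesis genes 10 had a Cul4 site and 13 a CP190 site, *Fib* and *Nop56* with both and *Nmd3* and *mbm* with neither. Of 6 genes of rRNA synthesis 3 had a Cul4 site and 4 a CP190 site. Of 8 regulators 5 had a Cul4 site and 6 a CP190 site. *Myc*, an activator of ribosome synthesis, had a Cul4 site and no CP190 peak in any library, and *M1BP* had no Cul4 peak.

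The second copies of ribosomal protein genes were counted apart from the core genes. Of 11 such copies, several known for expression in the germline, 4 had a Cul4 site and 5 a CP190 site, while of 73 other genes 69 and 66 did. Over all genes the shares were 25.3 and 39.2%, and the difference between copies and core genes was not tested. All 3 stalk genes had both sites. *RpLP0*, *RpLP1* and *RpLP2* encode the acidic proteins of the stalk that recruits elongation factors, with mean CP190 percentiles of 53.9 ± 8.78, 52.3 ± 8.73 and 77 ± 0.282 (SD, n = 3). Of the 2 genes that encode ubiquitin fused to a ribosomal protein, *RpS27A* had a Cul4 site, *RpL40* did not, and neither had a CP190 site. The 3 genes whose products resemble ribosomal proteins and are known from yeast as assembly factors, *RpLP0-like*, *RpL24-like* and *RpL7-like*, had a CP190 site each, and all but *RpL24-like* a Cul4 site. *RpL7-like* shares its TSS with *CG34164*.

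Within 6 of the 10 pairs of copies, 1 gene had both sites and the other had no Cul4 site. *RpS5a* had Cul4 percentiles of 88.1, 87.6 and 87.9, and *RpS5b*, known for its role in the ovary, had no Cul4 peak. The Cul4 summit at *RpS5a* lay at a mean of −897 bp, and *Chchd2* has its TSS 737 bp from that of *RpS5a*. This peak therefore cannot be given to *RpS5a* alone. *RpL22* had sites of both proteins, and *RpL22-like*, a copy known from the testis, had no peak of any protein. *RpL37-1* and *RpL10Ab* had both sites, and *RpL37-2* and *RpL10Aa* no peak. *RpL34b* had Cul4 percentiles of 86.7, 88.1 and 83.7, while *RpL34a* was called in 2 libraries, at 41.6 and 24.1. *RpS15Aa* had mean percentiles of 59.9 ± 12.9 for Cul4 and 90.4 ± 2.88 for CP190, and *RpS15Ab* no Cul4 peak and a CP190 peak in 2 of 3 control libraries. *RpS10a*, the copy of its pair listed as restricted, went the other way, with the strongest Cul4 peak of all ribosomal protein genes. Its Cul4, CP190, Su(Hw) and mouse Cul4 summits lay together, the Cul4 and CP190 summits at a mean of 852 bp upstream of its TSS, and *RpS10b* had mean percentiles of 59.9 ± 26.7 and 86.8 ± 3.19. Both genes of the pairs *RpS19a* and *RpS19b*, *RpS28a* and *RpS28b*, and *RpS14a* and *RpS14b* had both sites by the window rule. The CP190 peak counted for *RpS14b* is the one shared with *RpS14a*, with its summit at a mean of −1410 bp from the *RpS14b* TSS. Cul4 summits at *RpS19b* and *RpS28b* lay at means of −537 and −1040 bp. Their nearest other TSSs, of *CG5854* and *l(1)G0320*, are 382 and 873 bp away. These peaks therefore cannot be given to *RpS14b*, *RpS19b* or *RpS28b* alone. The authors removed reads that map to more than 1 place, so near-identical stretches of a pair give fewer reads, and the part of this in the values was not tested.

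Mouse Cul4 called 8 genes in all 3 libraries, and every one of them had a rabbit Cul4 site and a CP190 site. Most of the family had both, 71 of 92 genes. The share over all genes with a mouse Cul4 site was not computed, so this is no result about the antibodies. *RpS10a* and *RpS9* stood highest, at 86.4, 89.2 and 82.3 and at 85.5, 87.5 and 80.7, and these are also the 2 strongest genes for CP190. Lower down, *RpL30*, *RpS15*, *RpL3* and *RpL17* had mean percentiles of 28.2 ± 4.84, 26.2 ± 9.3, 23.7 ± 8.13 and 17.5 ± 9.5. *RpL10* and *RpL15*, among the strongest for the rabbit antibody, had no mouse Cul4 peak. *RpS3* was called in 1 library.

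Su(Hw) called 5 genes in every control library, *RpS21*, *RpS10a*, *RpS9*, *RpL28* and *RpS15*. *RpS21* carried the strongest peak, at 92.7, 88.6 and 87.4, and *RpS10a* followed at 65.6, 70.9 and 57.6. *RpS9* (34.8, 38 and 25.6), *RpL28* (31, 32.3 and 27.6) and *RpS15* (25, 35.6 and 23.5) were weak and overlapped one another. None of these peaks had its summit within 100 bp of a TSS. The median position was −508 ± 4.04 bp from the TSS, and the summits at *RpL28* lay 1196, 1206 and 1205 bp from its TSS, in peaks that reach into the 1 kb window.

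After *eff* RNAi, the calls of rabbit Cul4 at ribosomal protein genes differed widely between the libraries. Replicate 1 called 58 of the 92 genes, replicate 2 called 5 and replicate 3 called 2. The lists of these libraries hold 4488, 571 and 424 peaks, and all genes called made up 21.7, 3.39 and 1.96%. Of the 79 genes with a control site, 57 (72.2%), 5 (6.33%) and 2 (2.53%) were called, against 70, 13.2 and 6.85% of all genes with a control site. Only *RpL22* had a site after *eff* RNAi (1.09% of the genes, against 1.15% of all genes), at 95.2, 69.4 and 19.7. Another 5 genes were called in 2 of the 3 libraries, among them *RpS10a*, *RpL3*, *RpL26* and *RpS28a*. *RpS10a* was the single ribosomal protein gene besides *RpL22* that the shallowest library called, at 81.

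By the rule for lost calls, called in all 3 control libraries and in no knockdown library, 22 of 79 genes (27.8%) lost Cul4 after *eff* RNAi, against 30% of all genes with a control site. Those with the highest control percentiles were *RpL10* (93.7 ± 1.22), *RpL15* (90.8 ± 5.88), *RpS2* (84.9 ± 2.42), *RpS12* (83.2 ± 13.3), *RpL38* (82.3 ± 6.46), *RpS27A* (80.3 ± 4.61), *RpL18* (77.8 ± 1.71) and *RpL27* (77.8 ± 6.87). Strong control peaks were thus among those not called, while *RpS7*, the weakest, was called in replicate 1. The count rests on replicate 1, whose implied background was 33.2 reads, against 14.2 to 20.6 in the control libraries and 19.4 and 4.49 in replicates 2 and 3. Without replicate 1, 75 genes met the rule, and with each list shortened to its 424 strongest peaks 1 did, out of 3 genes then called in all control libraries. No ribosomal protein gene met the reverse rule, called in no control library and in all 3 knockdown libraries, in this or any other comparison. Over all genes 0 to 7 met it in a comparison, so the absence is no result about the family.

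After *cul4* RNAi Cul4 stayed called at most ribosomal protein genes. It had a site at 59 (64.1%), against 15.3% of all genes, with 75, 59 and 78 genes called in the 3 libraries. Of the 79 genes with a control site, 72 (91.1%), 58 (73.4%) and 74 (93.7%) were called, against 75.4, 61.5 and 81.2% of all genes with a control site. By the rule for lost calls 4 genes (5.06%) lost Cul4, against 15.3% of all genes with a control site: *RpL38* (82.3 ± 6.46 in control cells), *RpS24* (51.9 ± 15.2), *RpL7-like* (35.7 ± 4.21) and *RpS20* (30.9 ± 3.57). The *cul4* RNAi lists are shorter than those of control cells, at 3037, 2378 and 3431 peaks. Without replicate 3, 7 genes met the rule.

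Within the *cul4* RNAi lists the percentiles of the ribosomal protein genes were set beside those of control cells. The median percentile of those called was 49.6 ± 3.35, against 61.5 ± 3.15 in control cells, while over all genes called it was 51.7 ± 0.723 against 54.2 ± 0.781. Among the 58 genes called in all 6 libraries the median difference (knockdown minus control) was −10.28, against −4.01 over all 2741 such genes. In 12 of the 58 (20.7%) every knockdown library lay below every control library, against 25.4% of all such genes, and in 4 (6.9%) above, against 9.78%. The lists differ in length, and with each shortened to its 2378 strongest peaks 7 genes lay below and 3 above. A gene without overlap has an exact two-sided permutation p of 0.1, the smallest that 3 against 3 libraries can give, so no single gene can pass 0.05 here or in the comparisons that follow.

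The genes furthest below control in mean Cul4 percentile were *RpL21*, 69 ± 15.5 in control cells and 19.9 ± 21.6 after *cul4* RNAi, *RpS9*, 93.3 ± 3.46 and 51.2 ± 2.15, *RpL10*, 93.7 ± 1.22 and 57.2 ± 25.6, *RpS3*, 62 ± 18.8 and 25.7 ± 10.1, and *RpL27*, 77.8 ± 6.87 and 46.8 ± 17.6 (SD, n = 3 each). *RpS9* stood at 53.1, 48.9 and 51.5, the tightest of these, with a fold enrichment of 3.83, 4.32 and 4.15 against 6.15, 8.92 and 8.64 in control cells. The 4 genes above control in every library were *RpS7*, 10.1 ± 5.78 and 55.7 ± 20.1, *RpL8*, 54.9 ± 4.89 and 80.7 ± 4.82, *RpS28b*, 64.9 ± 3.2 and 82.3 ± 4.02, and *RpS5a*, 87.9 ± 0.231 and 90.6 ± 1.65. A percentile is a place among the peaks of its own list, so a higher one does not show more Cul4 binding after *cul4* RNAi. At *RpL8*, *RpS28b* and *RpS5a* the strongest control peak had its summit far upstream, at means of −1060, −1040 and −897 bp, so these peaks lie at the edge of the window. With the summit itself required within 1 kb, 2 genes stood above control. Larger mean differences than at *RpS28b*, with libraries that overlap, included *RpS26* (19.4 ± 24 and 42.9 ± 25.1) and *RpLP0-like* (32.3 ± 14.5 and 53.7 ± 20.9).

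**Figure D4:**
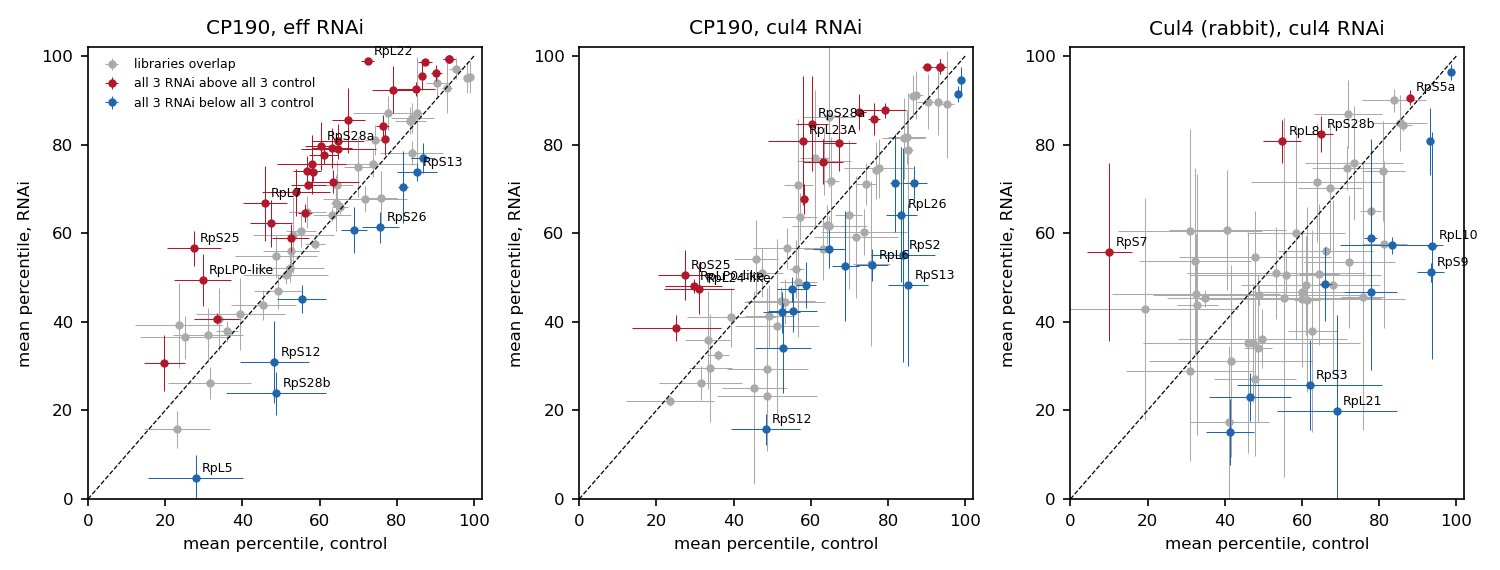
Mean percentile in RNAi libraries (y axis) against control libraries (x axis) for CP190 after *eff* and *cul4* RNAi and for rabbit Cul4 after *cul4* RNAi, 1 point per ribosomal protein gene called in all 6 libraries, with SD bars (n = 3). Red points lie above control in all libraries (30, 15 and 4 genes) and blue points below (9, 16 and 12), and the dashed line marks equal percentiles. Names mark the furthest points among those without overlap.

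CP190 stayed at nearly all ribosomal protein genes after *eff* RNAi and ranked higher at many of them. It had a site at 77 genes (83.7%), against 41% of all genes, and each library called 76 of the 77 genes with a control site (98.7%), against 98.2 to 99% of all such genes. *RpL15* alone lost its CP190 calls, 1 of 77 (1.3%), against 0.668% of all genes with a control site. The median percentile of the genes called was 68.4 ± 1.7, with 67.7, 67.1 and 70.3 in the libraries, all above the 60.4, 61.4 and 59.7 of control cells. Over all genes called it was 50 ± 0.551 against 49.2 ± 1.8. Of 76 genes called in all 6 libraries 30 (39.5%) lay above every control library, against 21.2% of all such genes, and 9 (11.8%) below, against 20.2%. The median difference was 5.94, against −0.99 over all such genes, and 54 of the 76 differences (71.1%) were above 0, against 46.4%.

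*RpS25*, a core gene of the small subunit, stood furthest above control, from 29.9, 19.5 and 32.9 in control cells to 57.6, 52.2 and 59.9 after *eff* RNAi, with a fold enrichment of 5.45, 4.22 and 5.33 in control cells and of 8.98, 8.22 and 9.37 after *eff* RNAi. *RpL22* stood at 70.7, 74.3 and 72.3 in control cells and at 98.8, 98.4 and 99.1 after *eff* RNAi, with a fold enrichment of 9.74, 10.1 and 9.65 in control and 19.4, 19.8 and 22.9 in knockdown cells. It is also the gene that kept Cul4 calls in all *eff* RNAi libraries. *RpL7* (45.8 ± 5.63 to 66.8 ± 8.46), *RpLP0-like* (29.7 ± 7.34 to 49.4 ± 5.9) and *RpS28a* (60.3 ± 4.02 to 79.6 ± 5.45) followed. Of the stalk genes, *RpLP0* and *RpLP2* were also above control in every library, at 69.2 ± 5.33 and 81.3 ± 3.58, and *RpLP1* was not, at 52.1 ± 3.1. Furthest below control were *RpS28b*, from 57.4, 33.9 and 54.8 to 18.5, 25.2 and 28, and *RpL5*, from 41.9, 18.7 and 23 to 10.6, 1.5 and 2.33, followed by *RpS12* (48.3 ± 8.86 to 30.9 ± 9.22), *RpS26* (75.7 ± 4.85 to 61.3 ± 3.54) and *RpS13* (85.2 ± 5.2 to 73.8 ± 2.09). The strongest control CP190 peak at *RpS13* had its summit at a mean of −1150 bp, at the edge of the window. *CSN8* has its TSS 193 bp from that of *RpS13*, so this peak cannot be given to *RpS13* alone. Ranked by −log10 p in place of fold enrichment, 23 genes lay above control and 2 below.

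After *cul4* RNAi CP190 also stayed, with ranks on both sides of control. It had a site at 75 genes (81.5%), against 33.5% of all genes. Of the 77 genes with a control site the libraries called 75, 75 and 73 (97.4, 97.4 and 94.8%), against 98.6, 95.2 and 83.6% of all such genes. Replicate 3, the library with the lowest implied background of the CP190 lists, at 6.21 reads, is the one with the fewest calls. The mitochondrial ribosomal protein genes had 39 CP190 sites (53.4%), against 54 in control cells. *RpL15* and *RpL5* lost their calls, 2 of 77 (2.6%), against 1.38% of all genes with a control site. With lists of equal length (6496 peaks each) 0 genes met the rule, of 71 then called in all control libraries. Of 73 genes called in all 6 libraries 15 (20.5%) lay above every control library, against 12.4% of all such genes, and 16 (21.9%) below, against 25%. The median difference was −3.25, against −4.99 over all such genes.

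*RpS28a* stood furthest above control for CP190 after *cul4* RNAi, from 57.5, 64.9 and 58.5 to 73.9, 85 and 95.3, followed by *RpS25* at 56.2, 50.3 and 45, *RpL23A* (57.9 ± 8.87 to 80.9 ± 14.6), *RpL17* (64.8 ± 6.75 to 86.2 ± 15.7) and *RpLP0-like* (29.7 ± 7.34 to 48.1 ± 1.51). The libraries of *RpL17* overlapped those of control cells. Furthest below control were *RpS13*, from 89.2, 79.3 and 87.2 to 61.1, 56.4 and 27.2, and *RpS12*, from 58.4, 41.7 and 44.9 to 19.8, 13.1 and 14.3. *RpS2* (83.8 ± 8.26 to 55 ± 24.1), *RpS28b* (48.7 ± 12.9 to 23.2 ± 11.4) and *RpL6* (75.9 ± 4.1 to 52.8 ± 3.68) followed, and the libraries of *RpS28b* overlapped. In *RpS13* and *RpS2* the shallow replicate 3 was the lowest, at 27.2 and 27.1. The CP190 peak counted for *RpS13* lies at the edge of the window, as given above, and cannot be given to that gene alone. Ranked by −log10 p, 7 genes lay above control and 10 below.

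The knockdowns share their 3 control libraries, so their values are set side by side with no test. In both, 13 genes lay above every control library for CP190, among them *RpL19*, *RpL22*, *RpL23A*, *RpL34b*, *RpL41*, *RpLP0-like*, *RpS14a*, *RpS14b*, *RpS15*, *RpS21*, *RpS25* and *RpS28a*. In both, 6 lay below: *RpL27*, *RpS10b*, *RpS12*, *RpS13*, *RpS5a* and *RpS7*. The matching counts over all genes were not made, so these counts are no result about the family. *RpS14a* and *RpS14b* share a CP190 peak and are not independent, and the CP190 peak counted for *RpS13* lies at the edge of the window. *RpL28* was the only gene above in one and below in the other, at 52.5 ± 4.82 in control cells, 58.9 ± 3.19 after *eff* RNAi and 42.1 ± 4.64 after *cul4* RNAi. *RpL28* also carries a weak Su(Hw) peak.

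Su(Hw) kept most of its few calls after *eff* RNAi and fewer after *cul4* RNAi. After *eff* RNAi 4 genes had a site (4.35%, against 6.28% of all genes), and 0 of 5 lost their calls, against 1.3% of all genes with a control site. After *cul4* RNAi 2 genes had a site (2.17%, against 5.48% of all genes), *RpS21* and *RpS15*, and 1 of 5 (20%), *RpL28*, lost its calls, against 7.97% of all genes with a control site. *RpS9* and *RpS10a* were each called in 1 of the 3 *cul4* RNAi libraries, at 1.18 and 1.27. *RpS21* stood higher in every knockdown library than in any control library, at 95.8, 98 and 96.5 after *eff* RNAi and 97.8, 96.3 and 97.9 after *cul4* RNAi. After *eff* RNAi 3 genes stood lower than in any control library, *RpS10a* at 34.5, 34.4 and 41.8, *RpS9* at 2.11, 1.22 and 4.12, and *RpS15* at 1.83, 21.9 and 0.883. *RpL28* stood at 30.1 and 36.4 in the 2 *eff* RNAi libraries that called it, and overlapped control cells.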

How the data were processed

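Peak lists of 30 ChIP-seq libraries were used. The authors aligned single-end reads, trimmed with cutadapt 3.4, to the FlyBase 6.35 genome by Bowtie2 2.4.2. They removed multimapping reads (SAMtools 1.12) and duplicates (Picard 2.25.2), and MACS2 2.2.7.1 gave peaks with a q under 1e-09. A deposited list covers a single library, and its columns hold the authors' fold enrichment, a ratio of pileup to local background, and the −log10 of p and q. The deposited score column restates −log10 q and was not used for results.

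Genes were taken from Ensembl 115, and a gene was called when a peak overlapped the window of 1000 bp to either side of any TSS. Percentiles rank the fold within a list. Per-gene percentiles were compared by exact permutation of 3 against 3 libraries, and lists of genes are described by counts beside all genes. Counting was done with Python 3.11.15, numpy 2.4.6, pandas 2.3.3 and scipy 1.17.1, and the rules were tested on simulated data. The members, the gene lists and the tests were chosen with earlier results of these data known. Named are the stalk and ubiquitin fusion genes, genes with no rabbit Cul4 peak, genes with Cul4 in all *eff* RNAi libraries, mouse Cul4 or Su(Hw) sites, lost calls (the 8 highest where there were more), the 5 highest and lowest by percentile, the 5 largest differences each way, and pairs of copies. Other names illustrate a count and were chosen after their values were seen. The lists of all libraries were analysed, and input libraries and reads were not analysed here. Intervals cannot be given without read totals. A pair of genes is counted in the totals but not reported by name or drawn by name here.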

Additional observations from a re-analysis of the deposited data

Results flagged for a closer look

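*RpL28* drew attention because its CP190 percentile moved opposite ways in the 2 knockdowns. Every *eff* RNAi library lay above every control library, a mean difference of 6.3, and every *cul4* RNAi library lay below, a mean difference of −10.4. The difference between the knockdowns was not tested.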

How the results depend on the processing

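Each count of genes was recomputed under the alternatives, and 158 of 201 values stayed within 1.5 times the reported count. Cul4 and CP190 sites in control and *cul4* RNAi cells and mouse Cul4 sites did so under every alternative run. The causes of the other shifts were not tested. Leaving out each replicate, Cul4 sites after *eff* RNAi numbered 1 to 5, lost Cul4 calls 23 to 75 after *eff* RNAi and 6 to 7 after *cul4* RNAi, lost CP190 calls 1 to 3 after *eff* RNAi, and lost Su(Hw) calls after *cul4* RNAi 1 to 3. With the same replicates left out, Cul4 ranks after *cul4* RNAi were lower in 21 to 26 genes and higher in 8 to 11, and CP190 ranks were lower in 9 to 19 after *eff* RNAi and 18 to 33 after *cul4* RNAi. Fewer libraries make non-overlap easier by construction. With −log10 q of at least 20, Cul4 after *eff* RNAi had 0 sites and 35 lost genes, and 7 genes lost Cul4 after *cul4* RNAi. With 2 of 3 libraries enough, the rule for lost calls was looser too. A gene then counted as lost with at least 2 control calls, at most 1 knockdown call and at least 2 calls fewer. Under these rules Cul4 after *eff* RNAi had 6 sites and 78 lost genes. Lost calls numbered 11 for Cul4 after *cul4* RNAi, 3 for CP190 after *eff* RNAi and 3 for Su(Hw) after *cul4* RNAi. With lists of equal length, lost calls numbered 1 for Cul4 after *eff* RNAi, 0 for CP190 and 3 for Su(Hw) after *cul4* RNAi, and 7 genes were lower for Cul4 after *cul4* RNAi. Within 250 bp, Su(Hw) had 1 site in each treatment and 0 lost genes after *cul4* RNAi, and 2 genes were higher for Cul4 after *cul4* RNAi. With the summit in the window, Su(Hw) had 3 sites in control cells and 1 after *cul4* RNAi with 0 lost, and 2 genes were higher for Cul4. With the 5′-most TSS alone, 0 genes lost Su(Hw) after *cul4* RNAi. By −log10 p, CP190 was lower in 2 genes after *eff* RNAi and 10 after *cul4* RNAi, and higher in 7 after *cul4* RNAi. With a percentile of 0 where not called, 27 genes were lower for Cul4 after *cul4* RNAi. With every TSS allowed, an alternative chosen after seeing the data, 57 genes held a TCT initiator.

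As a replicate block, libraries of the same number were paired. In no comparison did every pair of same-numbered libraries deviate together (correlation over 0.1). With so few libraries per group this cannot show whether same-numbered libraries shared a culture or batch. Paired in this way, 9 genes were higher for Cul4 after *cul4* RNAi, and all other counts stayed within 1.5 times.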
